A study of Mus musculus with 69 samples.

Results

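The genes described here encode the proteins of the cytosolic ribosome. Members were taken from the deposited count table by symbol: Rpl or Rps followed by a number and at most one letter and one further digit, together with Rplp0, Rplp1, Rplp2 and Rpsa. Rps27l, a p53 target that would otherwise match, was left out, and processed pseudogenes named with -ps do not match. This gave 88 members of 55367 genes, of which 35 belong to the small subunit, 50 to the large subunit and 3 to the ribosomal stalk. In the mouse Gencode M21 annotation, 82 of them are protein coding and 6 are pseudogenes (Rpl32l, Rpl6l, Rps12l1, Rps3a2, Rps3a3 and Rps4l). Rps12l1 had 0 counts in every library, and the other 87 members passed the filter on low counts in every comparison.

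The study grew mosaic gastruloids, aggregates of mouse embryonic stem (mES) cells that elongate and differentiate in culture, and asked how p53-deficient cells outcompete wild-type neighbours. RNA sequencing was done on 69 libraries in 23 conditions of 3 replicates each. All lines derive from the E14Tg2A mES line, and each line is 1 clone: WT–mCherry carries H2B–mCherry under the EF1α promoter, WT–emiRFP carries H2B–emiRFP670 under the CAG promoter, and p53KO–emiRFP is a daughter clone of WT–emiRFP with a homozygous frameshift in Trp53, obtained after selection with Nutlin-3a. WT+WT gastruloids were seeded with 150 WT–mCherry and 150 WT–emiRFP cells, and WT+p53KO gastruloids with 150 WT–mCherry and 25 p53KO–emiRFP cells. A pulse of the Wnt agonist CHIR99021 was given from 48 to 72 h, so gastruloids taken at 48 h had not gone through it and those taken later had. Cells were sorted by colour from pooled gastruloids at 48, 72, 96, 120 and 144 h, and unmixed mES cultures of each clone were taken as 0 h. The purity of the sorted cells was not measured after sorting. WT–mCherry cells from WT+p53KO gastruloids are called WT–mCherry cells beside p53KO cells below, and those from WT+WT gastruloids WT–mCherry cells beside WT cells.

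The small (40S) subunit reads the mRNA and the large (60S) subunit joins the amino acids, and each cytosolic ribosome holds, with few exceptions, one copy of every ribosomal protein. The mRNAs of these proteins begin with a 5′ terminal oligopyrimidine (5′TOP) tract, through which mTOR signalling and the protein LARP1 control their translation, so that their mRNA level and their protein output can part. Ribosomal protein genes are tied to cell competition and to p53 in another way: heterozygous Minute mutants, which lack one copy of such a gene, are the classical loser cells of Drosophila, and free Rpl5, Rpl11 and Rpl23 bind Mdm2 and thereby stabilise p53.

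Libraries held between 26722541 and 72981570 counts (median 53098728). Trp53 transcripts lay between 13902 and 20019 normalised counts in WT gastruloid libraries and between 1506 and 2014 in p53KO gastruloid libraries, and all 10 p53 targets used as a check were lower in p53KO–emiRFP cells than in their parent clone at every time. The mES markers of the fixed list (8 of 8 detected in every condition) summed to between 236028 and 245386 normalised counts in WT mES cells. Nothing in the labels says that same-numbered libraries come from separate cultures, whereas the methods describe temporally separate experiments, so p-values measure the spread between these samples. In bulk libraries of sorted cells, fewer cells of a type and less RNA per cell cannot be told apart.

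Promoter sequences were taken from RefSeq on GRCm38.p6 for the 63 members with an entry, 9 of them with several listed starts. A pyrimidine tract of a C followed by at least 4 further C or T bases began exactly at a listed start in 14 of the 63 members (22.2%), against 3.0% of the 27025 genes with a promoter. Counting tracts that begin at most 10 bases from the start, 39 members (61.9%) and 34.4% of all genes held one. Shown are 4 members whose tract starts at the listed start, to make the 5′TOP visible. Each window covers 60 bases before and 30 bases from the start, and capitals mark the tract. They lie at chr4:86857338-86857427 (Rps6, minus strand), chr3:90213619-90213708 (Rps27, minus strand), chr11:114668520-114668609 (Rpl38, plus strand) and chr7:4792905-4792994 (Rpl28, plus strand).
Rps6: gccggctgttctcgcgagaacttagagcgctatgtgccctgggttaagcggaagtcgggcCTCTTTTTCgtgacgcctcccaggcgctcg
Rps27: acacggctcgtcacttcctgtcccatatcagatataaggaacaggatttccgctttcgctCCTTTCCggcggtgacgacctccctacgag
Rpl38: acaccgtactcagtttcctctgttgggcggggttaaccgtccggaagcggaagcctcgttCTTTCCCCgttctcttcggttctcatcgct
Rpl28: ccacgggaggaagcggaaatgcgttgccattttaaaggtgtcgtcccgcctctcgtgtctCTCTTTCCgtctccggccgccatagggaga

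Shown next are 3 paralogues with their parents, whose levels are compared below. Rpl10l and Rpl39l are autosomal relatives of the X-linked Rpl10 and Rpl39 that are known from male germ cells, and Rpl22l1 is a paralogue of Rpl22. None of the 6 windows has a tract exactly at the start, and the capital marks the first transcribed base. The windows lie at chrX:74270756-74270845 (Rpl10, plus strand), chr12:66284372-66284461 (Rpl10l, minus strand), chrX:37085193-37085282 (Rpl39, minus strand), chr16:10170168-10170257 (Rpl39l, plus strand), chr4:152325666-152325755 (Rpl22, plus strand, at one of its listed starts) and chr3:28805448-28805537 (Rpl22l1, plus strand).
Rpl10: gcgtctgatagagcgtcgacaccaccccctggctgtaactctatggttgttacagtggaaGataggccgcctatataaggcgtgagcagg
Rpl10l: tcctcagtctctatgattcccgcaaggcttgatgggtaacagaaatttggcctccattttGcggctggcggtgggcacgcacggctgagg
Rpl39: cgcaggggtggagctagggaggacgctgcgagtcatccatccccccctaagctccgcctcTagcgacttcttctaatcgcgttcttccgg
Rpl39l: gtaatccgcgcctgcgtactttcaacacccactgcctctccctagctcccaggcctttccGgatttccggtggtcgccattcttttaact
Rpl22: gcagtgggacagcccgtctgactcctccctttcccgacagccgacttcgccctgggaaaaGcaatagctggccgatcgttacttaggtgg
Rpl22l1: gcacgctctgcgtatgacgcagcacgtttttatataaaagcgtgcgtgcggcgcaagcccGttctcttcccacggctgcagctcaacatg

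A further 3 motifs were searched over the 300 listed bases around each start, without regard to overlap between motifs. CCGGAAG, the core bound by Ets factors, was found on either strand in 25 of 63 members (39.7%), in 9.9% of all genes and in 17.5% of expressed genes outside the family. CACGTG, an E-box that reads the same on both strands, was found in 9.5% of members, in 8.1% of all genes and in 11.2% of expressed genes outside the family. TATAAA between 40 and 15 bases before the start was found on the gene's strand in Rpl22l1 alone (1.6% of members, 2.4% of all genes).

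The 88 members took between 7.32% and 10.1% of all counts of a library. Per kilobase of annotated exon, the highest levels were those of Rplp1, a stalk protein, with 160398 counts on average over the 69 libraries, followed by Rpl4 (92513), Rpl8 (89680), Rps2 (87071) and Rps15 (86947). At the other end, 7 members averaged under 1000 counts. Among these, Rpl24, a large-subunit protein that ribosomes normally hold, had between 12 and 25 normalised counts at 144 h, and 47.0% of its exons lie under the same-strand gene Gm28037. Rps10 averaged 529 counts, with 20.6% of its exons under the read-through gene RPS10-NUDT3. The counting of the study used unique reads per gene, and how reads in such overlapped exons were assigned was not tested, so these rows are uncertain. So are those of retrocopies: reads shared by Rps4x and Rps4l, or by Rps3a1, Rps3a2 and Rps3a3, could be split or lost.

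Across the 23 conditions, the SD of the log2 mean level had a median of 0.138 over the 77 core members, those that are protein coding and no paralogue. It was smallest in Rps6 (0.075), whose protein is the classical substrate of S6 kinase, followed by Rpl31 (0.076), Rpl22 (0.087), Rpl35a (0.089) and Rpl5 (0.091). For Rps6 the lowest and the highest condition differed 1.21-fold. The largest SDs were those of Rpl39l (2.03), Rpl10l (1.23), Rpl3l, a striated muscle paralogue of Rpl3 (0.833), Rps4l (0.373) and Rpl24 (0.370). Of these only Rpl24 is a core member, and the next core members were Rpl13a (0.341) and Rps10 (0.320), named here after their values were seen, both on rows partly overlapped by other genes. Rpl39l spanned a 150-fold range between condition means and Rpl10l an 18.3-fold range. By correlation of log2 condition means with the mean of 84 members over 23 conditions, given as a description, Rps25 (Pearson's r = 0.975), Rpl30 (0.958) and Rpl8 (0.951) were closest to the family, and Rps20 (0.325), Rps2 (0.183) and Rps3a2 (0.141) furthest from it. Outside the family the nearest genes were Use1 (0.945), Odf2 (0.934) and Pycard (0.923). The 23 conditions share clones and time points and are not independent.

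**Figure D1:**
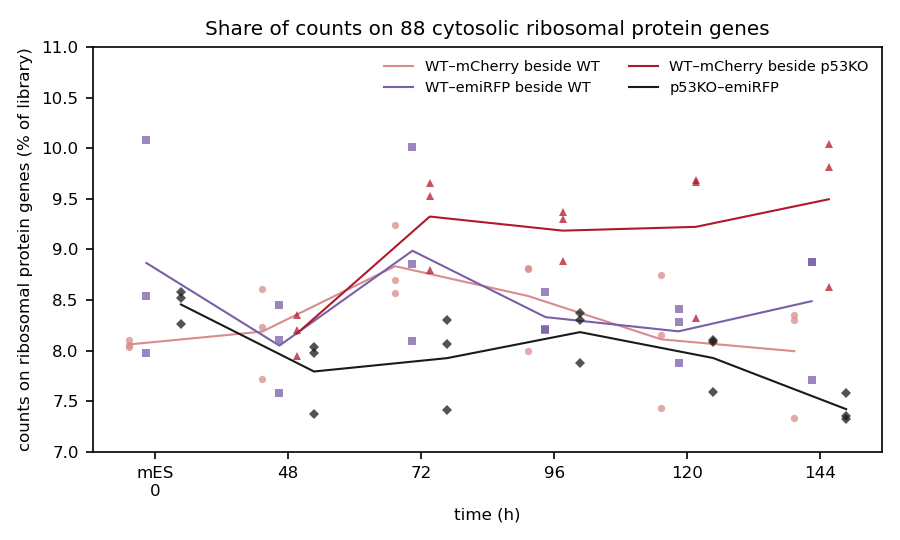
Counts on the 88 cytosolic ribosomal protein genes as % of all counts of a library (vertical axis, which starts at 7%) against time in hours. Points are libraries (3 per condition) and lines join condition means, with unmixed mES cultures at 0 h and, at 144 h, all 3 libraries of WT–mCherry cells beside p53KO cells between 8.62% and 10.04% and all p53KO–emiRFP libraries between 7.32% and 7.58%.

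Time in wild-type cells was followed first, as the mean of the WT populations against the time point before. The family did not move as one from mES cells to 48 h: 9 members rose, against 33.1% of all tested genes, and 19 fell, against 37.2% of all tested genes (edgeR quasi-likelihood test, adjusted p under 0.05, here and throughout). Its median log2 change was −0.055, beside −0.032 for all genes. When sample-specific trends in gene length and GC content were taken out together with a replicate block, 52 members rose (all genes 38.4%) and 8 fell (all genes 35.9%), so the direction at this step depends on the scaling. Between 48 and 72 h, 18 members rose (all genes 32.8%) and 8 fell (all genes 34.1%), with a median of 0.051. With the replicate block 30 rose and 13 fell (all genes 33.9% and 35.4%), and with the length and GC correction 20 rose and 24 fell (all genes 29.9% and 41.0%).

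From 72 to 96 h the family fell. The decrease passed the test in 34 members (39.1%, against 28.2% of all tested genes) and 1 member rose (all genes 30.4%), and 82 of 87 log2 changes were below 0 with a median of −0.095, beside 0.005 for all genes. Rplp1 fell by 0.22 (SE 0.07, adjusted p = 0.0069) and Rpl7a, a large-subunit protein, by 0.20 (SE 0.05, adjusted p = 0.00032). Markers moved at this step too. In WT–mCherry cells beside WT cells the primed epiblast sum went from between 39098 and 45048 to between 13220 and 15251. The mES sum fell there without overlap as well, the primitive streak and mesoderm sums overlap, and the part of these markers was not tested. From 96 to 120 h, 12 members fell (all genes 28.0%) and 3 rose (all genes 28.8%), and with the replicate block 36 fell (all genes 30.6%) and 3 rose. Rplp0, the stalk protein that anchors Rplp1 and Rplp2, fell by 0.21 at this step and by 0.21 again at the next (SE 0.04, adjusted p = 1.9e-06 at both). From 120 to 144 h, 8 members fell (all genes 26.8%) and 6 rose (all genes 28.6%), the family median being −0.013. Calls at these steps changed when a replicate was left out. Without replicate 1 of every condition 9 members fell from 72 to 96 h, and without replicate 2 it was 20. Without replicate 2 the risers and fallers numbered 3 and 11 from 0 to 48 h, 7 and 4 from 48 to 72 h and 3 and 5 from 96 to 120 h. Without replicate 1 they numbered 8 and 9 from 48 to 72 h and 3 and 5 from 120 to 144 h.

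The paralogues and retrocopies had their own time course. Rpl39l stood at 3316, 3371 and 3559 normalised counts in WT–mCherry mES cells, at 1158, 1112 and 728 in WT–mCherry cells beside WT cells at 48 h, and between 50.2 and 88.1 at 96 h. By 144 h it had returned to 556, 613 and 438 in the same population. The 4 groups of values do not overlap. In the mean of WT populations the steps were −1.91, −2.38, −1.15, 1.26 and 1.74 on the log2 scale, each past the test (largest adjusted p = 5.6e-09). Rpl10l followed a like course, with steps of −1.63, −1.33, 0.21, 1.19 and 0.73 (largest adjusted p = 0.0031). Their X-linked relatives stayed high: Rpl10 fell by 0.15 from 120 to 144 h (SE 0.03, adjusted p = 7.3e-05), and the condition means of Rpl39 lay between 17468 and 24465 normalised counts.

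The mES marker list shared only part of this course. Its 8 genes (Pou5f1, Nanog, Sox2, Esrrb, Zfp42, Klf4, Tfcp2l1 and Dppa3, all detected in every condition) summed to between 238863 and 245386 normalised counts in WT–emiRFP mES cells, and to between 54015 and 58414 in WT–mCherry cells beside WT cells at 48 h. From 48 to 72 h, when Rpl39l and Rpl10l fell further, the sum did not fall in this population and lay between 61803 and 68113 at 72 h, without overlap with 48 h, and its mean was higher at 72 than at 48 h in the other 2 WT populations too. It lay between 42612 and 53521 at 96 h. At 144 h the sum was between 74789 and 81872 in WT–mCherry cells beside WT cells, between 100449 and 113832 in WT–emiRFP cells and between 21289 and 28770 in p53KO–emiRFP cells. The germ cell list (6 of 6 detected) summed to between 8108 and 8258 in WT–emiRFP cells and between 2568 and 2928 in p53KO–emiRFP cells at 144 h. Each marker sum in this report adds normalised counts, so its most abundant genes lead it, and the single genes are not given. The part of these markers in the levels of Rpl39l and Rpl10l was not tested.

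**Figure D2:**
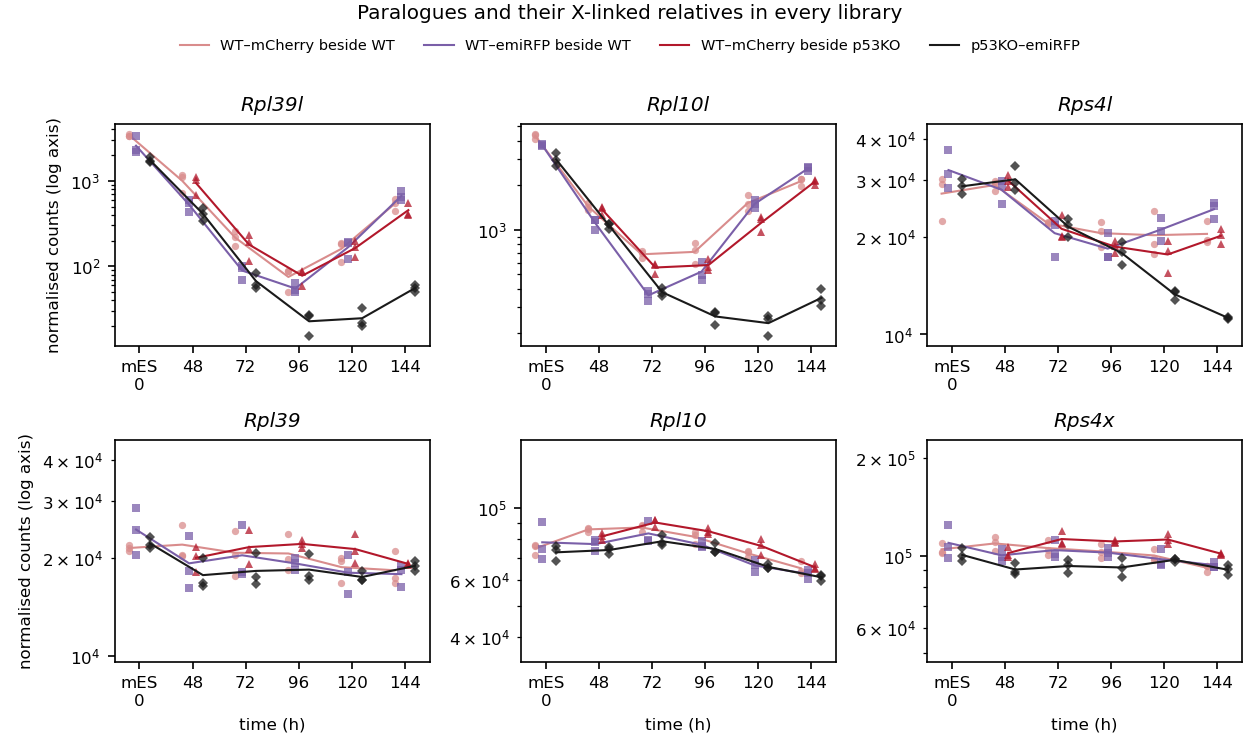
Normalised counts (vertical log axes) of Rpl39l, Rpl10l and Rps4l and of their X-linked relatives Rpl39, Rpl10 and Rps4x against time in hours, with one point per library and lines through the condition means of 3 libraries. Rpl39l and Rpl10l fell from mES cells to 72 or 96 h and rose again in the WT populations, while p53KO–emiRFP cells were at 55.9 (Rpl39l) and 348 (Rpl10l) at 144 h, above their lowest means of 22.8 at 96 h and 235 at 120 h, and the X-linked relatives moved little.

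The comparison of p53KO–emiRFP with its parent clone WT–emiRFP asks what the loss of p53, in competing cells, does to the family. In unmixed mES cells 1 of 87 members passed the test (Rpl39l, −0.56, SE 0.14, adjusted p = 0.030), against 6.13% of all tested genes. With the replicate block 3 members passed (all genes 9.82%). The median of the family was −0.11 there, but WT–emiRFP replicate 1 stood apart with 10.1% of its counts on the family, beside 8.53% and 7.98% in replicates 2 and 3. Without replicate 1 of each clone the median was 0.020 and 54 of 87 members were higher in p53KO–emiRFP cells. The sign of that median therefore rests on the replicate 1 libraries, which were left out together. The mES marker sum was between 204426 and 211631 in p53KO–emiRFP mES cells and between 238863 and 245386 in WT–emiRFP mES cells. The primed epiblast (21308 to 27706 against 16076 to 18481), germ cell (7303 to 7817 against 6469 to 7055), feeder or fibroblast (437 to 599 against 254 to 309) and primitive streak and mesoderm sums (226 to 252 against 172 to 221) were higher without overlap. Their part in these differences was not tested.

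At 48 h, when 22.0% of all genes differed, 2 members did: Rpl7l1, a nucleolar relative of Rpl7, was higher by 0.18 (SE 0.04, adjusted p = 0.010), and Rpl3, a protein near the peptidyl transferase centre, was lower by 0.21 (SE 0.05, adjusted p = 0.0067). With the replicate block 6 members were higher and 15 lower (all genes 22.3% and 18.8%), and without replicate 2 neither Rpl3 nor Rpl7l1 passed, while Rps10, named here after its value was seen, was higher. At 48 h the neural (611 to 662 against 520 to 601), striated muscle (1360 to 1724 against 969 to 1106), feeder or fibroblast (1530 to 1719 against 1225 to 1342) and blood sums (124 to 133 against 97 to 111, with Hbb-bh1 at 0 in both) were higher without overlap, and the haematoendothelial (1992 to 2159 against 2208 to 2367) and endoderm sums (6295 to 6814 against 8427 to 9378) lower. Their part in these differences was not tested.

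At 72 h, 10 members were lower and Rpl7l1 was higher by 0.23 (SE 0.05, adjusted p = 0.0020), and the share of members that were lower (11.5%) was below that of all genes (15.7%). The median was −0.14 for the family and 0.009 for all genes, with 9 of 87 members above 0. The family took 8.30%, 8.06% and 7.41% of counts in p53KO–emiRFP cells and 10.01%, 8.85% and 8.10% in WT–emiRFP cells. These groups overlap, although the p53KO–emiRFP library was the lower at each replicate number, and WT–emiRFP replicate 1 was again the highest. Rps19, a small-subunit protein mutated in Diamond–Blackfan anaemia, was lower by 0.34 (SE 0.09, adjusted p = 0.0095), Rps9 by 0.31 (SE 0.08, adjusted p = 0.0099) and Rpl22l1 by 0.44 (SE 0.15, adjusted p = 0.041). Under the replicate block 35 members were lower at 72 h (all genes 19.3%), and without replicate 2 none passed (10 had an unadjusted p under 0.05, and DESeq2 on all replicates called 9 lower and 1 higher). Without replicate 1 the test called 1 lower and 1 higher, and without replicate 3 it called 18 lower and 1 higher.

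Marker lists differed between the same libraries at 72 h. Primed epiblast markers summed to between 55659 and 62640 normalised counts in p53KO–emiRFP cells and between 35390 and 44839 in WT–emiRFP cells. The feeder or fibroblast (1030 to 1123 against 617 to 731, with Postn at 0 in WT–emiRFP cells), germ cell (1776 to 2037 against 1242 to 1409), striated muscle (621 to 759 against 477 to 614) and blood sums (29.3 to 38.6 against 17.1 to 20.3, with Hba-x and Hbb-bh1 at 0 in both) were higher without overlap too. The haematoendothelial (1426 to 1495 against 1758 to 1886) and endoderm sums (15554 to 15962 against 17338 to 19883) were lower. Their part in the ribosomal protein levels was not tested.

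At 96 h, 8 members were lower (9.20%, against 13.8% of all genes) and the median was −0.054, which turned to 0.026 with the length and GC correction (8 higher and 6 lower, against 30.5% and 16.1% of all genes). Under the replicate block 16 were lower (all genes 21.1%), and without replicate 1, 2 or 3 the number was 2, 3 and 4. Beside these, the mES marker sum at 96 h was between 26913 and 29257 in p53KO–emiRFP cells and between 39800 and 44345 in WT–emiRFP cells. The haematoendothelial (981 to 1069 against 1434 to 1783), striated muscle (355 to 424 against 510 to 569) and endoderm sums (12512 to 12957 against 13590 to 14958) were lower without overlap, and the primed epiblast (17579 to 20224 against 12645 to 14577) and primitive streak and mesoderm sums (50695 to 59828 against 40481 to 48023) higher. Their part in these differences was not tested. At 120 h, 8 members were lower (9.20%, against 23.7% of all genes) and the median was −0.035, beside 0.046 for all genes. Under the replicate block 5 were higher and 18 lower (all genes 33.7% and 28.0%). The direction of the family at 120 h flips with the length and GC correction (54 higher, against 41.4% of all genes, and 6 lower, median 0.15), so no direction can be given for it. Of the 8 lower members, 5 were the paralogues Rpl39l, Rpl10l, Rpl3l, Rpl22l1 and Rpl7l1, and 1 was the retrocopy Rps4l. Without replicate 1 of each group 5 members were lower.

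At 144 h much of the family was lower in p53KO–emiRFP cells, a direction that the length and GC correction does not keep. The members took 7.58%, 7.32% and 7.35% of counts in p53KO–emiRFP cells and 8.88%, 8.88% and 7.71% in WT–emiRFP cells (means 7.42 ± 0.14 and 8.49 ± 0.68, SD, n = 3). The groups do not overlap, and with 3 libraries against 3 an exact permutation test cannot go below p = 0.1. By edgeR, 40 of 87 members were lower (46.0%, against 32.1% of all tested genes) and none was higher, where 46 had an unadjusted p under 0.05 and DESeq2 called 43 lower and 0 higher. The median was −0.20 for the family and 0.007 for all genes. Without replicate 1, 2 or 3 of every group, 20, 15 and 57 members were lower and the median stayed between −0.25 and −0.17. With the length and GC correction, however, 25 members were higher and 28 lower (all genes 37.8% and 34.6%) and the median was 0.011, so the direction of the family rests on leaving these trends in.

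Marker lists of other cell types also differed between these libraries at 144 h. Primitive streak and mesoderm markers (6 of 6 detected) summed to between 17941 and 24034 normalised counts in p53KO–emiRFP cells and between 2539 and 3622 in WT–emiRFP cells, and neural markers (5 of 5) to between 8731 and 10371 against between 2407 and 3361. Haematoendothelial markers (6 of 6) went the other way, with between 1785 and 2243 against between 7746 and 7829, as did primed epiblast markers (4 of 4), with between 6407 and 7489 against between 9356 and 11616. The endoderm, blood and feeder or fibroblast sums overlap. The part of these markers in the ribosomal protein levels was not tested.

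By subunit, 14 of 34 small-subunit members, 25 of 50 large-subunit members and 1 of 3 stalk members were lower at 144 h, and a difference between subunits was not tested. Rpl4, a large-subunit protein of the exit tunnel, stood at 136809, 140541 and 139531 normalised counts in p53KO–emiRFP cells and at 197311, 199381 and 183615 in WT–emiRFP cells. It was lower in all 3 libraries, by 0.48 on the log2 scale (SE 0.06, adjusted p = 5.7e-06), and by 0.27 with the length and GC correction. Rpl3 stood at 74797, 75255 and 71699 against 92732, 98723 and 90798. It was lower by 0.35 (SE 0.05, adjusted p = 6.3e-05) and by 0.32 with the correction, with no overlap of the groups. Rps19 was lower by 0.32 (SE 0.10, adjusted p = 0.012) with or without the correction (0.33).

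Rpl5, Rpl11 and Rpl23, whose proteins act on Mdm2, are described next. Rpl11 stood at 45606, 42872 and 42074 normalised counts in p53KO–emiRFP cells and at 47704, 44972 and 38838 in WT–emiRFP cells at 144 h, overlapping groups with a log2 difference of −0.011 (SE 0.09, adjusted p = 0.93). Rpl5 differed by −0.10 (SE 0.05, adjusted p = 0.076) without overlap, and Rpl23 by −0.15 (SE 0.08, adjusted p = 0.12). None of the 3 passed the test in p53KO–emiRFP cells at this time, and the sign for Rpl11 turned with the length and GC correction. Of the stalk, Rplp1 stood at 57080, 52293 and 50817 against 73458, 73760 and 60559 and was lower by 0.38 (SE 0.11, adjusted p = 0.0066), but the difference turned to 0.13 with the length and GC correction. Rplp0 differed by 0.030 (SE 0.06, adjusted p = 0.68) and Rplp2 by −0.18 (SE 0.10, adjusted p = 0.14).

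Further members of fixed interest did not pass the test either, except Rpsa. Rpsa, also known as the laminin receptor precursor, was lower by 0.23 (SE 0.09, adjusted p = 0.032). The differences were −0.081 for Rps6 (SE 0.07, adjusted p = 0.35), −0.080 for Rps27a, which is made as a ubiquitin fusion (SE 0.06, adjusted p = 0.24), −0.14 for Rpl38, known for selective translation of Hox mRNAs (SE 0.09, adjusted p = 0.18), −0.088 for Rpl22 (SE 0.07, adjusted p = 0.30) and −0.32 for the few counts of Rpl24 (SE 0.32, adjusted p = 0.40). With the length and GC correction the sign turned for Rps6 (0.13) and Rpl38 (0.28).

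Rpl39l and Rpl10l had the largest differences of all members at this time. At 144 h Rpl39l stood at 56.0, 61.1 and 50.4 normalised counts in p53KO–emiRFP cells and at 649, 753 and 598 in WT–emiRFP cells, a ratio of 0.0839 (log2 −3.57, SE 0.18, adjusted p = 1.5e-09). Rpl10l stood at 307, 336 and 400 against 2614, 2652 and 2485, a ratio of 0.134 (log2 −2.90, SE 0.09, adjusted p = 3.8e-11). The groups do not overlap for either gene. Neither Rpl39 (0.086, SE 0.08, adjusted p = 0.36) nor Rpl10 (−0.035, SE 0.05, adjusted p = 0.55) passed the test at 144 h. The sign for Rpl10 turned with the length and GC correction.

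From 48 h on, the gap between the genotypes opened with time. For Rpl10l the p53KO difference was −0.055 at 48 h (SE 0.07, adjusted p = 0.65), 0.069 at 72 h (SE 0.09, adjusted p = 0.63), −1.0 at 96 h (SE 0.14, adjusted p = 0.00011) and −2.67 at 120 h (SE 0.13, adjusted p = 1.6e-09). For Rpl39l it was −0.36, −0.40, −1.28 and −2.74 at the same times, and of these it passed the test from 96 h on (adjusted p = 0.0043 at 96 h). Rpl39l had also passed it in mES cells at 0 h (−0.56, SE 0.14, adjusted p = 0.030). Beside these, the mES marker sum was between 17588 and 18336 in p53KO–emiRFP cells and between 75149 and 85421 in WT–emiRFP cells at 120 h. The primitive streak and mesoderm list (6 of 6 detected) went the other way, with between 28737 and 33633 in p53KO–emiRFP and between 9899 and 13457 in WT–emiRFP cells. The germ cell sum was between 1580 and 1760 against between 4666 and 4988 at 120 h. The haematoendothelial (802 to 1138 against 5502 to 5713), striated muscle (383 to 441 against 941 to 1241) and endoderm sums (6534 to 7884 against 8162 to 9730) were lower without overlap too. Whether these markers account for the difference was not tested.

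Rps4l, annotated as a transcribed processed pseudogene of Rps4x, stood at 11267, 11329 and 11187 in p53KO–emiRFP cells and at 25459, 24850 and 22668 in WT–emiRFP cells at 144 h (log2 −1.11, SE 0.07, adjusted p = 6.3e-09), without overlap. Its X-linked relative Rps4x differed by −0.047 (SE 0.05, adjusted p = 0.38), a sign that turned with the length and GC correction. Rpl22l1 stood at 1665, 1566 and 1513 against 2439, 2327 and 2396 (log2 −0.59, SE 0.09, adjusted p = 4.1e-05). It was lower in p53KO–emiRFP cells from 72 h on, by 0.44 to 0.59, and by 0.30 to 0.45 with the length and GC correction. Rpl22 did not pass the test at any of these times.

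Among the remaining related rows, Rpl3l (10.3, 23.1 and 15.5 against 70.0, 68.0 and 51.3 normalised counts at 144 h) was lower by 1.96 (SE 0.29, adjusted p = 4.4e-05), few counts without overlap. Its parent tissue's markers were low too: the striated muscle list (7 of 7 detected) summed to between 521 and 550 in p53KO–emiRFP and between 1473 and 1930 in WT–emiRFP cells, and its part was not tested. Rpl13a was lower by 0.54 (SE 0.10, adjusted p = 0.00030), on a row with 35.4% of its exons under same-strand genes. The retrocopies Rps3a2 (0.15, SE 0.08, adjusted p = 0.12) and Rps3a3 (0.0028, SE 0.08, adjusted p = 0.98) and their parent Rps3a1 (−0.039, SE 0.07, adjusted p = 0.64) did not pass the test. Rps27 differed by −0.049 (SE 0.14, adjusted p = 0.77), whereas its relative outside the family, the p53 target Rps27l, lay at 4386, 3477 and 4019 against 7003, 7203 and 6751 in the same libraries. With the length and GC correction the sign turned for Rps27 and Rps3a1. Rpl36a differed by 0.008 (SE 0.09, adjusted p = 0.94), and Rpl36al had between 31 and 39 normalised counts in p53KO–emiRFP cells.

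**Figure D3:**
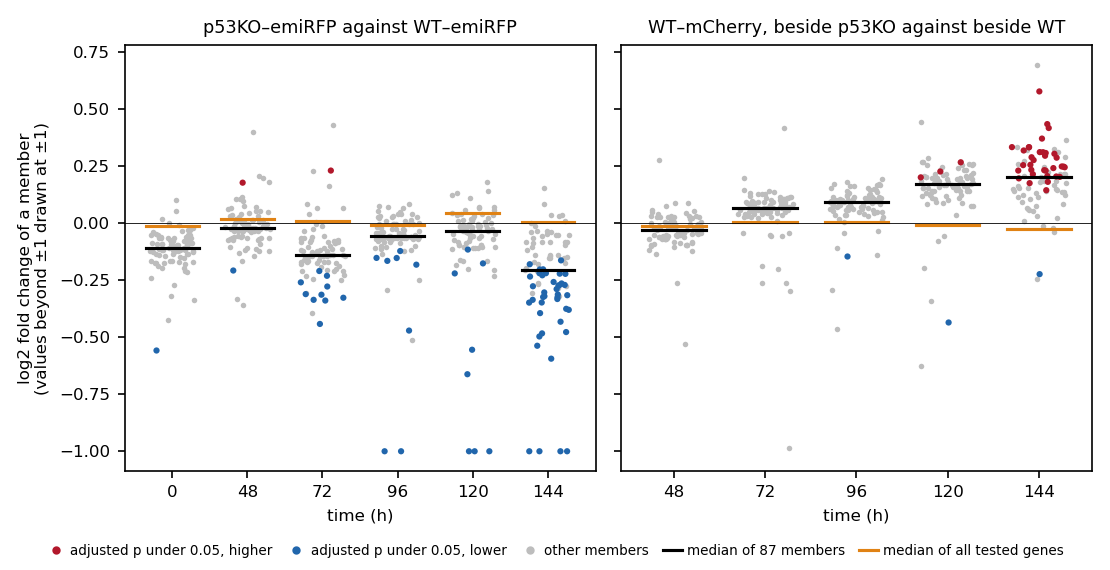
Log2 fold change of each of 87 tested members (points, with values beyond ±1 drawn at ±1) against time in hours, for p53KO–emiRFP against WT–emiRFP cells (left) and WT–mCherry cells with p53KO neighbours against those with WT neighbours (right). Black and orange bars are the medians of the members and of all tested genes: on the right the member median goes from −0.031 at 48 h to 0.21 at 144 h, and on the left it is −0.20 at 144 h, where the length and GC correction brings it to 0.011.

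The comparison of WT–mCherry cells beside p53KO cells with WT–mCherry cells beside WT cells asks what a p53KO neighbour does to the family in the same wild-type clone. At 48 h no member passed the test (none had an unadjusted p under 0.05, and DESeq2 called 0), against 0.0735% of all tested genes, and the median was −0.031. With the replicate block 1 member was higher and 8 were lower (all genes 4.91% in either direction). The mES (51508 to 54005 against 54015 to 58414) and endoderm sums (6310 to 6725 against 9086 to 9560) were lower beside p53KO cells at 48 h without overlap, and the primed epiblast sum (216126 to 223805 against 200058 to 209831) higher, and their part was not tested. At 72 h no member passed either, against 0.559% of all genes (2 had an unadjusted p under 0.05, and DESeq2 called 0). However, 76 of 87 members were above 0, where 51.3% of all genes were, with a median of 0.068 beside 0.004 for all genes. Endoderm markers summed to between 21462 and 22697 normalised counts beside p53KO cells and between 24421 and 25224 beside WT cells at 72 h. The haematoendothelial (2183 to 2396 against 2497 to 2664), germ cell (1407 to 1489 against 1596 to 1873) and striated muscle sums (594 to 662 against 690 to 976) were lower without overlap too, and the feeder or fibroblast sum was higher (681 to 832 against 529 to 641). Their part in the ribosomal protein levels was not tested.

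At 96 h, 80 of 87 log2 changes were above 0 (all genes 50.9%) and the family median was 0.092, beside 0.004 for all genes. The libraries beside p53KO cells had 9.30%, 9.37% and 8.89% of their counts on the family, those beside WT cells 8.82%, 8.80% and 7.99%, and the groups do not overlap. Only Rpl7l1 passed the test among the members, lower by 0.14 (SE 0.04, adjusted p = 0.049), against 3.93% of all tested genes. Under the replicate block 32 members were higher (all genes 11.7%) and 3 lower. Without replicate 1, 2 or 3 of every group no member passed, while 25, 11 and 15 had an unadjusted p under 0.05 and DESeq2 on all replicates called 3 higher and 1 lower. Of the marker lists of cell types, only the primitive streak and mesoderm sums do not overlap at 96 h, with between 48102 and 52090 beside p53KO cells and between 41498 and 46560 beside WT cells, and their part was not tested.

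At 120 h the median rose to 0.17, beside −0.008 for all genes, and 81 of 87 members were above 0 (all genes 48.3%). The family took 9.68%, 9.66% and 8.32% of counts beside p53KO cells and 8.15%, 8.75% and 7.43% beside WT cells. These groups overlap, but in each replicate number the library beside p53KO cells was the higher. By the test 4 members differed, against 5.95% of all genes: Rps3a3 (0.27, SE 0.07, adjusted p = 0.041), Rps2 (0.23, SE 0.06, adjusted p = 0.035) and Rpl5 (0.20, SE 0.06, adjusted p = 0.049) were higher and Rpl10l lower (−0.44, SE 0.12, adjusted p = 0.042). Without replicate 1 or 2 no member passed (11 and 48 had an unadjusted p under 0.05), and without replicate 3 it was 2. With the block 55 members were higher (all genes 10.3%) and 2 lower, although at this time the same-numbered libraries of 1 pair hardly deviated together (correlation 0.0705).

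Marker lists also differed between these libraries at 120 h. The mES markers summed to between 52870 and 55629 normalised counts beside p53KO cells and between 60887 and 75248 beside WT cells. Primitive streak and mesoderm markers lay higher, between 18193 and 21697 against between 11747 and 16127, and haematoendothelial markers lower, between 2791 and 3151 against between 3890 and 4616. The germ cell sums (3347 to 3779 against 3895 to 4512) and the feeder or fibroblast sums (465 to 542 against 640 to 981) were lower without overlap too, and the p53 target sum was higher, between 66758 and 67143 against between 56709 and 61297. The part of these markers in the ribosomal protein levels was not tested.

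At 144 h the family was higher in WT–mCherry cells beside p53KO cells. It took 10.04%, 9.82% and 8.62% of counts there and 8.35%, 8.30% and 7.33% beside WT cells (means 9.49 ± 0.76 and 7.99 ± 0.57, SD, n = 3), without overlap. The test called 34 members higher (39.1%, against 10.1% of all tested genes) and 1 lower, Rpl7l1. Of the 87 members 82 were above 0, where 46.2% of all genes were, and the median was 0.21 beside −0.027 for all genes. All 77 core members were above 0, as a description. Unlike the p53KO difference, this direction was kept by the length and GC correction, which left a median of 0.20 with 61 members higher (all genes 18.8%) and 2 lower, and with the replicate block alone 62 were higher (all genes 15.0%) and 2 lower. The calls changed when a replicate was left out, while medians stayed between 0.19 and 0.22. Without replicate 1 none passed (29 had an unadjusted p under 0.05, and DESeq2 on all replicates called 44 higher and 1 lower). Without replicate 2 it was 1, and without replicate 3 it was 44 higher and 1 lower.

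Members of both subunits were higher. Of the small subunit 14 of 34 members rose, of the large subunit 20 of 50 rose and 1 fell, and of the 3 stalk members none passed. Rpl28 stood at 61539, 57303 and 47734 normalised counts beside p53KO cells and at 43149, 47057 and 38542 beside WT cells (log2 0.37, SE 0.10, adjusted p = 0.013). Rpl12, which binds at the base of the stalk, stood at 105870, 96019 and 91192 against 81884, 79438 and 74815 (log2 0.31, SE 0.07, adjusted p = 0.0046). In both genes the lowest library beside p53KO cells lay above the highest beside WT cells.

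Rps19 stood at 58841, 58485 and 46523 against 44636, 46199 and 39222 (log2 0.33, SE 0.10, adjusted p = 0.029), without overlap. Rps15, a protein of the small-subunit head, was higher by 0.33 (SE 0.10, adjusted p = 0.023), but by 0.18 with the length and GC correction. Rpl18 was higher by 0.33 (SE 0.09, adjusted p = 0.018). Rps27 rose by 0.42 (SE 0.14, adjusted p = 0.037), but its groups overlap, at 37250, 30198 and 23241 against 25166, 23177 and 19530. The largest of all called changes was that of Rpl23a (0.58, SE 0.18, adjusted p = 0.033), chosen after its values were seen. It stood at 15142, 9410 and 7949 against 8188, 7028 and 6545, overlapping groups. Its size leans on replicate 1, without which Rpl23a differed by 0.355 (adjusted p = 0.0671), it did not pass without replicate 2 either, and 59.7% of its exons lie under the opposite-strand gene Tlcd1.

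Of the proteins that bind Mdm2, Rpl5 stood at 91049, 94310 and 87439 beside p53KO cells and at 79331, 81146 and 76147 beside WT cells (log2 0.21, SE 0.05, adjusted p = 0.0075). Rpl23 stood at 83435, 72333 and 65980 against 63009, 63515 and 54888 (log2 0.29, SE 0.08, adjusted p = 0.023). Neither pair of groups overlaps. Rpl11 was at 52460, 46972 and 41847 against 45159, 43062 and 37766, which overlap (log2 0.17, SE 0.09, adjusted p = 0.21).

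The other members of fixed interest had differences of 0.22 for Rpsa (SE 0.09, adjusted p = 0.084), 0.20 for Rps6 (SE 0.07, adjusted p = 0.060), 0.15 for Rps27a (SE 0.06, adjusted p = 0.074), 0.21 for Rpl38 (SE 0.09, adjusted p = 0.083) and 0.13 for Rpl24 (SE 0.33, adjusted p = 0.81), none past the test. Rpl22 rose by 0.23 (SE 0.07, adjusted p = 0.031). Of the stalk, the differences were 0.025 for Rplp0 (SE 0.06, adjusted p = 0.80), 0.11 for Rplp1 (SE 0.11, adjusted p = 0.47) and 0.12 for Rplp2 (SE 0.10, adjusted p = 0.41).

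No paralogue passed the test as higher. Rpl7l1 stood at 9790, 9513 and 10175 beside p53KO cells and at 11138, 11771 and 11499 beside WT cells (log2 −0.22, SE 0.05, adjusted p = 0.0055), without overlap, whereas Rpl7 differed by 0.15 (SE 0.05, adjusted p = 0.050) with its groups apart. Rpl10l differed by −0.013 (SE 0.078, adjusted p = 0.93), Rpl39l by −0.24 (SE 0.15, adjusted p = 0.26), Rpl22l1 by 0.032 (SE 0.09, adjusted p = 0.83) and Rps4l by −0.020 (SE 0.07, adjusted p = 0.86). Of their X-linked relatives, Rps4x rose by 0.14 (SE 0.05, adjusted p = 0.032), while Rpl10 (0.012, SE 0.05, adjusted p = 0.89) and Rpl39 (0.065, SE 0.08, adjusted p = 0.59) did not pass the test. Rpl3 rose by 0.20 (SE 0.05, adjusted p = 0.018), and Rps3a1 by 0.23 (SE 0.07, adjusted p = 0.026).

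Several marker lists differed between the same libraries at 144 h. The p53 target sum lay between 60865 and 63722 normalised counts beside p53KO cells and between 52060 and 53923 beside WT cells. Primed epiblast markers (4 of 4 detected) summed to between 6780 and 7142 against between 8119 and 9716, endoderm markers (4 of 4) to between 2388 and 3069 against between 1634 and 2024, and feeder or fibroblast markers (4 of 4) to between 487 and 790 against between 1332 and 2749. The mES marker sums overlap, and so do the shares of mitochondrially encoded counts, with between 0.659% and 1.62% beside p53KO cells and between 0.727% and 1.26% beside WT cells. The share of counts on histone genes does not overlap, with between 0.0142% and 0.0188% beside p53KO cells and between 0.0135% and 0.0140% beside WT cells. It was higher without overlap at 96 and 120 h too. The part of these markers and shares in the ribosomal protein levels was not tested.

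Other parts of the translation machinery, listed by role, are given for the same comparisons, and differences between lists were not tested. Beside p53KO cells at 144 h, 10.1% of all tested genes rose and 15.4% fell. There, 5 of 20 other 5′TOP genes rose and 1 fell (median 0.084), among them Fau, whose product holds the small-subunit protein eS30 (0.35, SE 0.11, adjusted p = 0.037), and the elongation factor gene Eef2 (0.24, SE 0.06, adjusted p = 0.0084). Of 77 mitochondrial ribosomal protein genes none rose and 13 fell (median −0.11), led by Mrpl20 (−0.42, SE 0.07, adjusted p = 0.00072). Of 16 dedicated chaperones and placement factors, which carry single ribosomal proteins to the nascent subunit, none rose and 10 fell (median −0.18). These included Heatr3, a factor for Rpl5 (−0.40, SE 0.06, adjusted p = 0.00035), and Rpf2 (−0.27, SE 0.06, adjusted p = 0.0050). The list and its count also hold Aar2 (−0.33, SE 0.06, adjusted p = 0.0017), whose role as such a factor was not checked. Of 15 regulators of TOP mRNA translation 1 rose and 4 fell, with Myc, which drives ribosome biogenesis, at −0.88 (SE 0.11, adjusted p = 0.00021).

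Between p53KO–emiRFP cells and the parent clone the lists were also counted at earlier times. At 72 h, when 13.4% of all genes were higher and 15.7% lower, 11 of 16 chaperones were higher and none lower (median 0.24), and 16 of 77 mitochondrial ribosomal protein genes were higher and 1 lower, beside 10 cytosolic members lower and 1 higher. At 48 h, when 10.3% of all genes were higher, 26 mitochondrial members were higher and none lower, with a median of 0.13. At 144 h, when 33.1% of all genes were higher and 32.1% lower, 8 chaperones were lower and 3 higher, 28 mitochondrial members lower and 14 higher, and 7 other 5′TOP genes lower and 2 higher, including Eif4a2 (−0.59, SE 0.08, adjusted p = 1.0e-05). Among the regulators at 144 h, Myc was higher (0.74, SE 0.11, adjusted p = 5.2e-05), and Eif4ebp1, an mTOR-controlled brake on cap-dependent translation, lower (−0.90, SE 0.08, adjusted p = 2.6e-07).

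**Figure D4:**
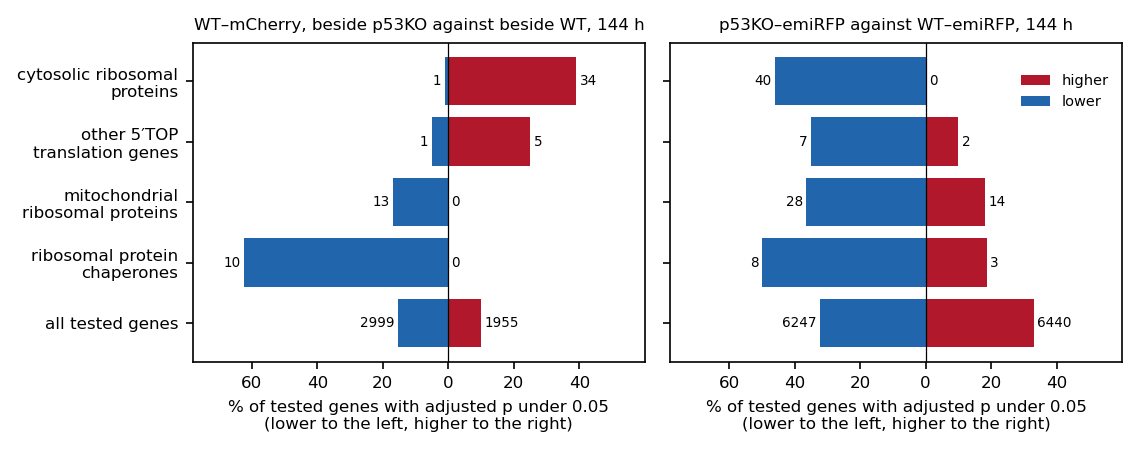
Percent of each gene list that was lower (left bars) or higher (right bars) at an edgeR adjusted p under 0.05, with the number of genes beside each bar, for WT–mCherry cells with p53KO neighbours against those with WT neighbours (left) and p53KO–emiRFP against WT–emiRFP cells (right) at 144 h. On the left, 34 cytosolic ribosomal protein genes are higher (all tested genes 10.1%), and 13 mitochondrial ribosomal protein genes and 10 chaperones are lower (all tested genes 15.4%). On the right, 40 cytosolic members are lower (all tested genes 32.1%). With the length and GC correction that count becomes 28 lower and 25 higher (all tested genes 34.6% and 37.8%).

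The 2 WT clones served as a measure of clonal difference. In mES cells 4 members were higher in WT–emiRFP than in WT–mCherry (among them Rps27, Rps26 and Rps9, by 0.33 to 0.51), against 11.1% of all genes in either direction, and here again WT–emiRFP replicate 1 stood apart (without replicate 1 of each clone 4 members were higher and 1 lower, without replicate 2 no member passed, where 9 had an unadjusted p under 0.05 and DESeq2 on all replicates called 8 higher and 1 lower, and without replicate 3 only 1 passed). Within WT+WT gastruloids 4 members were lower in WT–emiRFP at 48 h (all genes 8.89% in either direction), namely Rpl39l (−0.93, SE 0.19, adjusted p = 0.0066), Rpl10l (−0.37, SE 0.07, adjusted p = 0.0042), Rpl27a and Rpl10, and 41 were lower with the replicate block (all genes 16.5% lower). Without replicate 1, 2 or 3 of each clone 1, 0 and 2 members were lower at 48 h (6 had an unadjusted p under 0.05 without replicate 2, and DESeq2 on all replicates called 4). At 72 h, 2 members were lower (all genes 7.64% in either direction), Rpl39l by 1.27 (SE 0.24, adjusted p = 0.0054) and Rpl10l by 0.92 (SE 0.09, adjusted p = 2.9e-05), and without replicate 1 or 2 only 1 of them passed. At 96 and 120 h none passed (all genes 2.15% and 1.24% in either direction, with 6 and 1 members at an unadjusted p under 0.05, and DESeq2 calling 1 and 0), and with the replicate block 10 were lower at 96 h (all genes 7.2% lower).

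Marker lists differed between the WT clones as well. In mES cells the neural (1639 to 1765 in WT–emiRFP against 1005 to 1203 in WT–mCherry), endoderm (11404 to 13359 against 7475 to 10524) and blood sums (172 to 214 against 134 to 143) were higher without overlap, and the striated muscle (2191 to 2819 against 3383 to 4404) and feeder or fibroblast sums (254 to 309 against 387 to 410) lower. At 48 h the mES sum was between 46373 and 49119 in WT–emiRFP and between 54015 and 58414 in WT–mCherry cells. The neural (520 to 601 against 652 to 760), haematoendothelial (2208 to 2367 against 2503 to 2801) and striated muscle sums (969 to 1106 against 1187 to 1410) were lower without overlap too, and the feeder or fibroblast sum (1225 to 1342 against 1067 to 1165) higher. At 72 h the mES sum was between 52962 and 60295 against between 61803 and 68113, and the germ cell sum between 1242 and 1409 against between 1596 and 1873. The haematoendothelial (1758 to 1886 against 2497 to 2664), neural (246 to 294 against 315 to 434), striated muscle (477 to 614 against 690 to 976) and endoderm sums (17338 to 19883 against 24421 to 25224) were lower without overlap too, and the primitive streak and mesoderm sum (48017 to 61670 against 39221 to 47575) higher. Their part in these differences was not tested.

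At 144 h, 3 members were higher in WT–emiRFP than in WT–mCherry cells beside WT cells (all genes 23.8% in either direction): Rpl10l (0.28, SE 0.08, adjusted p = 0.019), Rps4l (0.25, SE 0.07, adjusted p = 0.013) and Rpl4 (0.20, SE 0.06, adjusted p = 0.023). Under the replicate block 19 were higher (all genes 16.5% higher), and without replicate 1 or 2 it was 0 and 1 (4 had an unadjusted p under 0.05 without replicate 1, and DESeq2 on all replicates called 5). The family median of this clonal difference was 0.10 at 144 h. In the same libraries the mES (100449 to 113832 against 74789 to 81872), germ cell (8108 to 8258 against 6401 to 6769), haematoendothelial (7746 to 7829 against 5782 to 6244), striated muscle (1473 to 1930 against 963 to 1353) and endoderm sums (2026 to 2261 against 1634 to 2024) were higher without overlap. The primitive streak and mesoderm (2539 to 3622 against 5756 to 7475), neural (2407 to 3361 against 5040 to 6610) and feeder or fibroblast sums (623 to 875 against 1332 to 2749) were lower. Their part in these differences was not tested. Since WT–emiRFP libraries are also the reference of the p53KO comparison, the clonal values for Rpl39l and Rpl10l stand beside the p53KO values above and share those libraries.

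Whether the p53KO difference itself changed with time was tested between 48 and 120 h, in one fit of all libraries. It changed for 4 members, each towards lower levels in p53KO–emiRFP cells (all genes 36.6%, in either direction). These were Rpl10l (−2.62, SE 0.15, adjusted p = 2.1e-20), Rpl39l (−2.39, SE 0.38, adjusted p = 8.3e-07), Rps4l (−0.77, SE 0.14, adjusted p = 1.3e-05) and Rpl7l1 (−0.29, SE 0.064, adjusted p = 0.00019). With the length and GC correction 37 members changed towards higher and 5 towards lower levels (all genes 24.2% and 20.7%), with a median of 0.15, so a change of the family between these times depends on the scaling.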

How the data were processed

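RNA of sorted cells was sequenced as stranded poly A libraries. The authors trimmed reads with Trim Galore 0.6.7, aligned them to GRCm38.p6 with STAR 2.7.11b and deposited counts of uniquely mapped reads per gene, not normalised. Which strand column was taken is not given in the sources used here. Counts of 69 libraries (26722541 to 72981570 each) were analysed as deposited.

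Normalised counts are counts divided by median-of-ratios size factors over all libraries. Comparisons used the edgeR 4.0.16 quasi-likelihood test (R 4.3.3, limma 3.58.1) after filterByExpr, which kept 17686 to 21132 genes. The 12 libraries of a time point (9 at 0 h) were fitted together, and all 69 for time steps and the interaction. P-values were adjusted by Benjamini-Hochberg over all tested genes, with a threshold of 0.05. Alternatives were DESeq2 1.42.0, TMM, size factors without the members, total counts, no filter, the compared groups alone, each replicate left out, and a replicate block without or with an offset for length and GC trends (13801 genes averaging 50 counts or more, splines with 5 degrees of freedom). Fits with a replicate left out had fewer libraries per condition and no block, so calls can be lost through that alone. The members, lists and tests were chosen with earlier results of these data known.

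Same-numbered libraries deviated together, with every pair's correlation over 0.1, in 14 of 17 within-time comparisons (14100 genes, lowest 0.0406, highest 0.688), and the methods describe temporally separate experiments. The exceptions were the neighbour comparison of WT–mCherry cells at 120 h and the clones at 0 and 72 h, and, among time steps, 0 to 48 h.

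Members named are those of fixed roles and paralogue pairs, up to 5 per direction and comparison past the threshold, with log2 CPM averaging 1 or more and groups that do not overlap, the 5 with the largest and smallest SD over conditions, and the 5 highest per length. The separate results of 2 members are not reported here. On counts simulated for p53KO–emiRFP against WT–emiRFP at 120 h with 200 of 18700 genes changed 2-fold, edgeR recovered 88% with 4.35% false calls. The simulation held no shared replicate effect and changed few genes, so it does not measure recovery or false calls for the smaller changes of most members. Gene positions are from Gencode M21, in which 96.4% of symbols were found, and promoter windows from RefSeq. Sorted populations are 1 clone each, so clone and genotype cannot be told apart. In gastruloids, genotype cannot be told apart from neighbours and seeding number either.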

Additional observations from a re-analysis of the deposited data

Results flagged for a closer look

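The p53KO difference of 4 of 87 members (4.6%) itself differed between 48 and 120 h, against 36.6% of all tested genes (edgeR quasi-likelihood interaction, adjusted p under 0.05, either direction). With the length and GC correction 37 members changed towards higher and 5 towards lower levels (all genes 24.2% and 20.7%). For Rpl10l the difference went from −0.055 to −2.67, a change of −2.62 (adjusted p = 2.1e-20). For Rpl39l it changed by −2.39 (from −0.36, adjusted p = 8.3e-07), for Rps4l by −0.77 (from 0.11 to −0.66, adjusted p = 1.3e-05) and for Rpl7l1 by −0.29 (from 0.18 to −0.12, adjusted p = 0.00019). The 4 kept their direction in every alternative run.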

How the results depend on the processing

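How many members were called depended on the processing, and the cause was not tested. Counts below are of members called in either direction, and only those that moved by over 1.5 times are given. The share of all tested genes called moved with the processing as well. In the neighbour comparison at 48 h it went from 0.0735% to 4.91% with the replicate block. Here and in the next paragraph that share is not given with each count, so the counts alone do not describe the family. With the replicate block, the count was 3 (0 h), 21 (48 h), 36 (72 h), 16 (96 h) and 23 (120 h) for p53KO–emiRFP against the parent clone, 15 (0 h), 41 (48 h), 4 (72 h), 10 (96 h) and 19 (144 h) for the 2 WT clones, 9 (48 h), 1 (72 h), 35 (96 h), 57 (120 h) and 64 (144 h) for the neighbour comparison, 43 (48 to 72 h) and 39 (96 to 120 h) for the WT time steps. With the replicate block and the length and GC offset, the count was 4 (0 h), 31 (48 h), 32 (72 h), 14 (96 h) and 60 (120 h) for p53KO–emiRFP against the parent clone, 19 (0 h), 39 (48 h), 13 (72 h), 8 (96 h), 3 (120 h) and 22 (144 h) for the 2 WT clones, 2 (48 h), 7 (72 h), 33 (96 h), 56 (120 h) and 63 (144 h) for the neighbour comparison, 60 (0 to 48 h), 44 (48 to 72 h), 70 (72 to 96 h), 66 (96 to 120 h) and 33 (120 to 144 h) for the WT time steps, 42 for the change of the p53KO difference. Without the filter on low counts, the count was 3 (0 h), 7 (48 h), 31 (72 h) and 13 (120 h) for p53KO–emiRFP against the parent clone, 16 (0 h), 10 (48 h), 6 (96 h) and 6 (144 h) for the 2 WT clones, 11 (96 h) and 35 (120 h) for the neighbour comparison, 44 (0 to 48 h) and 32 (96 to 120 h) for the WT time steps. By DESeq2, the count was 3 (0 h) and 4 (48 h) for p53KO–emiRFP against the parent clone, 9 (0 h), 1 (96 h) and 5 (144 h) for the 2 WT clones, 4 (96 h) and 11 (120 h) for the neighbour comparison. Scaled to total counts, the count was 5 (48 h), 19 (72 h) and 4 (96 h) for p53KO–emiRFP against the parent clone, 2 (96 h) for the neighbour comparison, 58 (48 to 72 h), 13 (72 to 96 h) and 9 (96 to 120 h) for the WT time steps. Fitted on the compared groups alone, the count was 0 (0 h) and 13 (120 h) for p53KO–emiRFP against the parent clone, 0 (0 h) for the 2 WT clones, 0 (96 h), 0 (120 h) and 11 (144 h) for the neighbour comparison. With TMM, the count was 4 (96 h) for p53KO–emiRFP against the parent clone, 54 (144 h) for the neighbour comparison. With size factors that leave the members out, the count was 0 (96 h) for the neighbour comparison.

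Leaving out each replicate in turn gave counts of 0 to 1 (0 h), 1 to 3 (48 h), 0 to 19 (72 h), 2 to 4 (96 h), 5 to 7 (120 h) and 15 to 57 (144 h) for p53KO–emiRFP against the parent clone, 0 to 5 (0 h), 0 to 2 (48 h), 1 to 2 (72 h), 0 to 2 (96 h) and 0 to 3 (144 h) for the 2 WT clones, 0 (96 h, each time), 0 to 2 (120 h) and 0 to 45 (144 h) for the neighbour comparison, 14 to 32 (0 to 48 h), 11 to 30 (48 to 72 h), 9 to 44 (72 to 96 h), 8 to 22 (96 to 120 h) and 8 to 14 (120 to 144 h) for the WT time steps.

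The replicate block with the length and GC offset turned the sign of 9 named values. In p53KO–emiRFP cells at 144 h these were Rpl10 (0.14), Rpl11 (0.089), Rpl38 (0.28), Rplp1 (0.13), Rps27 (0.36), Rps3a1 (0.35), Rps4x (0.22) and Rps6 (0.13), and at 120 h Rpl4 (0.025). Rpl39l, Rpl10l, Rps4l and Rpl22l1 stayed lower in p53KO–emiRFP cells at 144 h with it (−3.20, −2.54, −0.79 and −0.43). The other scalings shifted the median of all genes by at most 0.085. Depth limited few members, chiefly Rpl24, Rpl32l and Rpl3l with means of at most 30.2 counts.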
